A study of Mus musculus with 8 samples.

Results

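Saa3, Orm1, Hp and Lrg1 encode acute-phase proteins and were followed as a group of 4 of the 32285 genes counted in single cells sorted as monocytic myeloid-derived suppressor cells (mMDSCs). Saa3 and Orm1 were selected on their higher counts in the blood of unirradiated knockout mice, so their values in that contrast describe the choice and are not a finding. Hp and Lrg1 were added as acute-phase genes of the same cells. The questions were in which cells the transcripts of the 4 genes lay, how many cells held them, and how the levels compared between genotypes, between tissues and after irradiation.

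C57BL/6J mice bore tumors of MC38, a colon carcinoma line, and CD45+CD11b+Ly6Chi cells were sorted from tumor and from blood. A single irradiation of the tumor with 20 Gy (IR) was compared with no treatment (control) at 3 days, which gave 4 droplet libraries. Each library mixed cells of wild-type mice (WT, Ythdf2 fl/fl) and of Lyz Cre Ythdf2 fl/fl mice (cKO), in which Cre, driven from the lysozyme locus, removes a part of Ythdf2 in myeloid cells. All mice thus carried the floxed Ythdf2 alleles. Before mixing, cells were stained with a hashtag antibody, B0301 for WT and B0302 for cKO. Barcodes with at least 20 hashtag UMIs were labelled WT where B0301 reached B0302, and cKO where B0302 reached 4 times B0301. A UMI (unique molecular identifier) marks 1 captured transcript. Cells of 5 mice were pooled per group, so each of the 8 groups was 1 sample. No spread between mice could be measured and no test was made. Every interval below is at the 95% level and covers counting error only, and PCR copies of 1 molecule count once.

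Acute-phase proteins are plasma proteins that hepatocytes release in bulk when interleukin-6 and interleukin-1 signal an infection, an injury or a tumor, through STAT3, C/EBP and NF-kB. Some of them are also made by myeloid cells. Saa3 is the serum amyloid A that is produced mainly outside the liver, by macrophages and other activated cells. Orm1, orosomucoid 1, is an acid glycoprotein that binds lipophilic ligands. Haptoglobin, encoded by Hp, captures free haemoglobin, and the complex is taken up through Cd163. Lrg1, leucine-rich alpha-2-glycoprotein 1, modulates TGF-beta signalling through endoglin and is stored in neutrophil granules. Hp and Lrg1 are transcribed during neutrophil differentiation and their products are packed into granules.

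On the mouse genome (mm10), Saa3 (ENSMUSG00000040026) lies on the minus strand of chromosome 7 at 46711998 to 46715700. Orm1 (ENSMUSG00000039196) lies on the plus strand of chromosome 4 at 63344560 to 63348163, beside the near-identical copies Orm2 and Orm3, so the split of its reads among the copies is uncertain. Orm2 held 6 UMIs and Orm3 24 UMIs in all kept cells. Hp (ENSMUSG00000031722) lies on the minus strand of chromosome 8 at 109575128 to 109579172, and Lrg1 (ENSMUSG00000037095) on the minus strand of chromosome 17 at 56119678 to 56122001. All 4 are protein-coding.

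The bases just upstream of Saa3 and Lrg1 are shown, as promoter sequences were available for these members only. In blood few cells held Saa3 and most neutrophil-like cells held Lrg1, as given below. Each stretch has 180 bases and ends 70 bases before the RefSeq start. Build GRCm38.p6 was used, and capitals mark a match to the C/EBP letters.
Saa3, chr7:46715747-46715926, minus strand: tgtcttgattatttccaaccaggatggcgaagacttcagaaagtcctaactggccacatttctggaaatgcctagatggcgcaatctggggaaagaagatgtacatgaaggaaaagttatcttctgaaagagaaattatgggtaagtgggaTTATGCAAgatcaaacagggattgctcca
Lrg1, chr17:56122017-56122196, minus strand: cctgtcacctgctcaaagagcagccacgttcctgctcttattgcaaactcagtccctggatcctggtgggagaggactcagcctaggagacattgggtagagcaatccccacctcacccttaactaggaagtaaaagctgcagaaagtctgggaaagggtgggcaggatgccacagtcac
The letters TTGCNNAA (C/EBP) and TTCNNNGAA (STAT) and the NF-kB motif were searched on both strands from 250 bases before to 50 bases after each start. The Saa3 window held 1 match, TTATGCAA, which reads TTGCNNAA on the other strand and begins 99 bases before the start. The Lrg1 window held none of the 3. Among 32544 promoters of the same length, 10.8% held the C/EBP letters, 8.33% the STAT letters and 4.78% the NF-kB motif. A match describes letters only.

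In all, 27666 cells were kept, 2153 to 4670 per group. Median gene UMIs per cell were 2965 (control) and 2984 (IR) in the blood libraries and 7291 (control) and 6068 (IR) in the tumor libraries, and the libraries held 51653956 to 87703837 gene UMIs. The targeted gene went against its label. Ythdf2 stood at 32.6 to 55.7 CPM (counts-per-million, the UMIs of a gene scaled by all gene UMIs of the group) in the 4 groups labelled WT and higher in each of the 4 labelled cKO, at 342 CPM in blood IR, 371 CPM in tumor control and 339 CPM in tumor IR. Counts of transcript 3′ ends do not see a deletion elsewhere in a gene. The cause of the higher Ythdf2 level under the cKO label was not tested. Lyz2, at whose locus Cre sits, followed the label, with 5629 to 14087 CPM in WT and 83.8 to 138 CPM in cKO, while its neighbour Lyz1 went the other way, from 3.30 to 10.8 CPM in WT to 109 to 251 CPM in cKO. The genotypes are therefore called by their hashtag label throughout. In blood, 98.4% and 98.7% of the cells labelled WT also had B0301 at 4 times B0302 or more. In tumor control this held for 39.6% and in tumor IR for 77.1% of them, so the WT label was weak there. The gate did not leave monocytes alone. Clusters of blood cells were mostly neutrophil-like, and NK cell-like clusters and, in tumors, a fibroblast-like cluster were also present. Of the kept cells 220 had a barcode that was also kept in another library, among them 1 of 253 Saa3-holding and 0 of 71 Orm1-holding cells.

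The 4 genes differed in how widely they were found. Hp was held by 16998 cells, Lrg1 by 8608, Saa3 by 253 and Orm1 by 71, and 17469 of 27666 cells (63.1%) held at least 1 UMI of any member. A cell with both Hp and Lrg1 was common, 8241 in all. No cell held Saa3 together with Orm1, and no cell held all 4. Of the Saa3-holding cells 152 also held Hp, as did 65 of the Orm1-holding cells. Saa3 and Orm1 were both rare, with 54 and 50 holders among 3815 cells of cKO blood control. At such shares 0 shared cells could come from rarity alone.

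**Figure D1:**
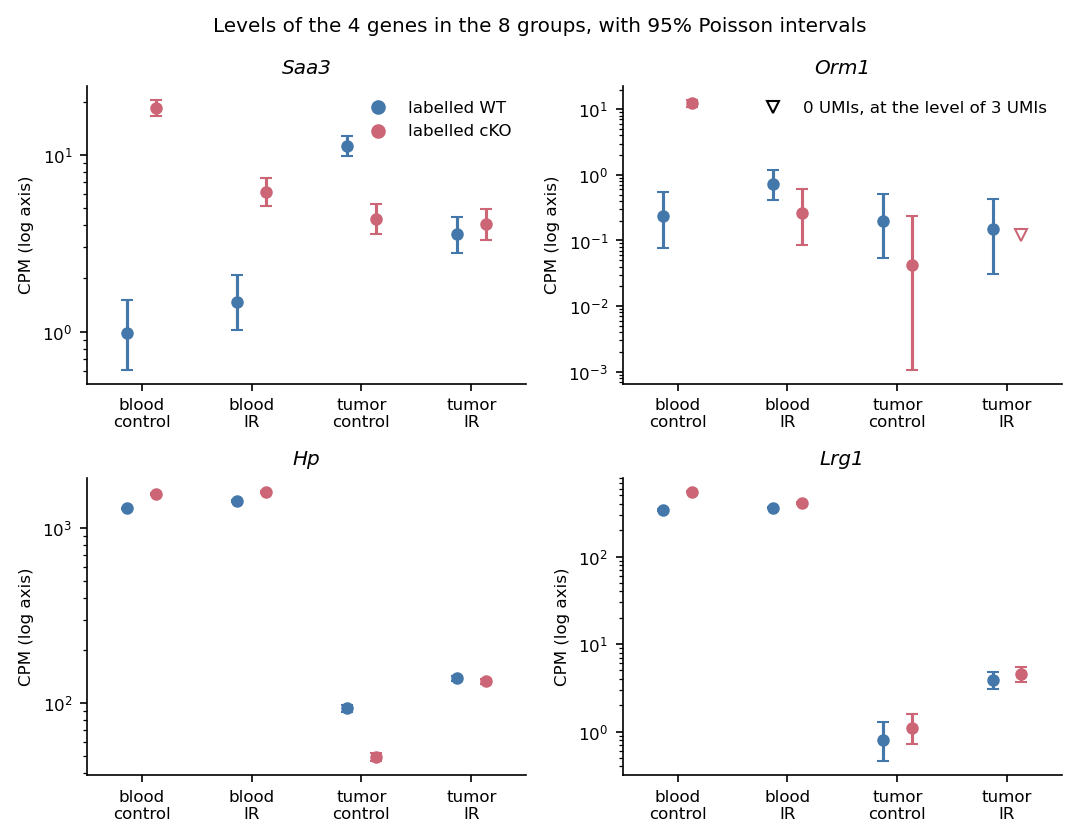
Level of each gene in the 8 groups, as CPM on a log axis; points are 1 pooled sample each, blue for cells labelled WT and red for cells labelled cKO, and bars are 95% Poisson intervals. Hp and Lrg1 were at 1290 to 1602 CPM and 344 to 552 CPM in blood and far lower in tumor, while Saa3 stayed between 0.979 and 18.5 CPM in all 8 groups; the open triangle stands at the level that 3 UMIs would give.

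Saa3 was a rare transcript. Among cells labelled WT it had 21 UMIs in 15 of 4670 cells in blood control, 33 UMIs in 23 of 4157 cells in blood IR, 227 UMIs in 38 of 2520 cells in tumor control and 72 UMIs in 31 of 3119 cells in tumor IR. Among cells labelled cKO it had 355 UMIs in 54 of 3815 cells, 118 UMIs in 22 of 3459 cells, 104 UMIs in 32 of 2153 cells and 101 UMIs in 38 of 3773 cells in the same order. In levels, WT stood at 0.979, 1.48, 11.3 and 3.55 CPM and cKO at 18.5, 6.20, 4.36 and 4.07 CPM. The highest group was thus cKO blood control, followed by WT tumor control.

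In several groups a few cells carried most of the Saa3 UMIs. In cKO blood control 4 cells held 50% of them, with 90, 37, 37 and 34 UMIs. The 10 highest cells of that group held 72.7% of its Saa3 UMIs, and 97 UMIs were left in the others. In cKO blood IR 1 cell held 71 of 118 UMIs, and in WT tumor control 1 cell held 75 of 227. In each of the 8 groups 1 to 7 cells held 50% of the Saa3 UMIs. Cells with 1 UMI were 26 of 54 holders in cKO blood control and 19 of 38 in WT tumor control. WT blood had no such high cells. There 12 of 15 holders (control) and 19 of 23 (IR) had 1 UMI, and the highest cell had 5 in both. In WT tumor IR 25 of 31 holders had 1 UMI.

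**Figure D2:**
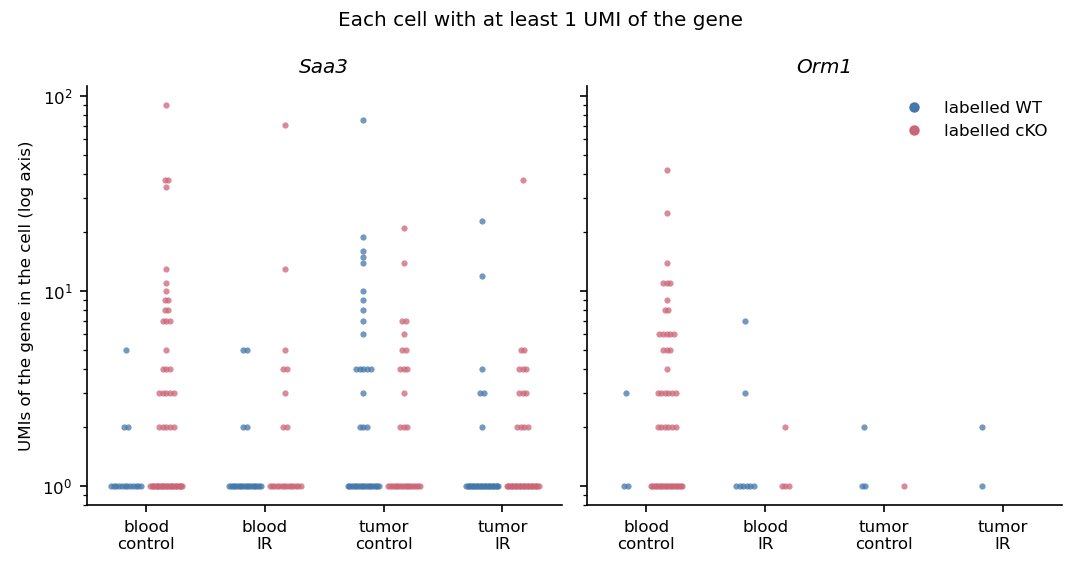
UMIs of Saa3 (left) and Orm1 (right) in each cell that held at least 1, on a log axis, by library, with cells labelled WT in blue and cells labelled cKO in red; 1 point is 1 cell. For Saa3 the highest cell had 90 UMIs in cKO blood control, 71 in cKO blood IR and 75 in WT tumor control, while Orm1 passed 7 UMIs only in cKO blood control, where its highest cell had 42.

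In blood most Saa3 UMIs were monocyte-like. Of 527 blood Saa3 UMIs 463 (87.9%) lay in monocyte-like cells, that is cluster 2, raised in Ly6c2, Ccr2, Vcan, Chil3, F13a1 and Plac8. Of these, 317 came from cKO blood control, the group on which the gene was chosen. By cells, 78 of 114 blood holders were monocyte-like and 16 neutrophil-like. In blood control monocyte-like cells held 11 of 21 WT UMIs, in 6 of 767 cells (1.39 CPM). These were 6 of the 15 WT holders. Among cells labelled cKO they held 317 UMIs in 42 of 660 cells (46.8 CPM). In blood IR they held 25 UMIs in 16 of 758 WT cells (2.60 CPM) and 110 UMIs in 14 of 665 cKO cells (12.7 CPM). The share of monocyte-like cells with Saa3 was 6.36% (4.62% to 8.50%, Clopper-Pearson) in cKO blood control and 0.782% (0.288% to 1.69%) in its WT counterpart. After each cell was thinned to 1000 UMIs, to make depths equal, these shares were 2.27% and 0.261%. Nonclassical monocyte-like cells (raised in Ace, Treml4 and Nr4a1) came next, with 30 UMIs in 8 of 405 cKO cells of blood control and 1 UMI in 277 WT cells. Neutrophil-like cells stayed at 0.354 to 0.828 CPM in the 4 blood groups.

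NK cell-like cells, which should lack the gene, were shallower than monocyte-like cells. In blood control, at median depths of 3180 (WT) and 3171 (cKO) UMIs, they held 0 Saa3 UMIs in 202 and 55 cells. Here, as wherever a count is 0, the limit given is that of 3 counts, which allows shares of up to 1.49% and 5.45% at that depth. Monocyte-like cells had medians of 10147 and 10016 UMIs. In blood IR the NK cell-like cells held 2 UMIs in 2 of 106 WT cells (1.89%, 0.229% to 6.65%), at a median depth of 3496 UMIs, beside 12290 (WT) and 12796 (cKO) UMIs in monocyte-like cells. Empty droplets of blood control held 0 Saa3 UMIs among 673109 gene UMIs, which allows up to 4.46 CPM. Blood also held almost no hepatocyte transcripts. Of 7 hepatocyte markers 5 or 6 were at 0 in each blood group, Alb, Ttr, Apob and Fgb among them, and their summed level was 0.0932 to 0.224 CPM.

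The contrast on which Saa3 was chosen, cKO against WT in blood control, came to 4.18 on the log2 scale of CPM ratios (3.61 to 4.95), computed, like each ratio below, after 1 UMI was added to both sums. Without the 10 cells of each group that held most, 97 UMIs stood against 5 and the ratio was again 4.18. That removal was uneven, as it took 10 of 15 WT holders and 10 of 54 cKO holders. In the irradiated blood, which the choice did not use, the ratio was 2.03 (1.5 to 2.67), with cKO again higher. That value rested on few cells. Without the 10 highest cells of each group, 12 UMIs in cKO stood against 13 in WT and the ratio was 0.10. The share of monocyte-like cells with Saa3 was 2.11% under both labels after IR (1.21% to 3.41% in WT and 1.16% to 3.51% in cKO). It was 1.89% in the NK cell-like WT cells, on 2 cells, and 0.101% (WT) and 0.202% (cKO) in neutrophil-like cells, at median depths of 2637 and 2617 UMIs. At 1000 UMIs per cell it was 0% (WT) and 0.451% (cKO) in monocyte-like cells. The 5 highest cKO cells, all monocyte-like, had 71, 13, 5, 4 and 4 UMIs, and empty droplets of blood IR stood at 1.80 CPM. The part of free RNA in single UMIs was not tested.

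In tumors Saa3 lay elsewhere. Of 504 UMIs 294 (58.3%) were in macrophage-like cells, 92 in unnamed clusters and 79 in fibroblast-like cells, of which 2 single cells after IR held 23 (WT) and 37 (cKO) UMIs. In tumor control the macrophage-like cells labelled WT held 184 UMIs in 29 of 1187 cells (17.9 CPM) and those labelled cKO 56 UMIs in 20 of 1203 cells (4.34 CPM). Cluster 5, macrophage-like and led by Mmp13, Cxcl3 and Hspa1a, held 115 of the WT UMIs in 10 of 244 cells and 1 UMI in 103 cKO cells. The highest cell, with 75 UMIs, had 2 UMIs of Lyz2, 352 UMIs of the WT hashtag and 130 of the cKO hashtag, short of the 4 times margin. With that margin the macrophage-like WT cells stood at 8.13 CPM on 55 UMIs. The unnamed clusters went the other way, with 28 UMIs in 975 WT cells (5.21 CPM) and 39 UMIs in 548 cKO cells (12.9 CPM), a log2 ratio of 1.27 (0.57 to 2.06). After IR the macrophage-like cells held 16 UMIs (1.93 CPM, WT) and 38 UMIs (3.04 CPM, cKO).

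Over all tumor control cells the cKO to WT ratio of Saa3 was -1.36 (-1.72 to -1.03), opposite in sign to blood control. It was -0.91 where WT cells had to meet the 4 times margin too, on 76 WT UMIs, and -1.04 without the 10 highest cells of each group. In tumor IR the ratio was 0.19 and its interval (-0.25 to 0.65) held 0. Empty droplets of the tumor libraries had 6.81 CPM (control) and 5.41 CPM (IR) of Saa3, within the range of the tumor groups, so single UMIs there cannot be told apart from free RNA.

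**Figure D3:**
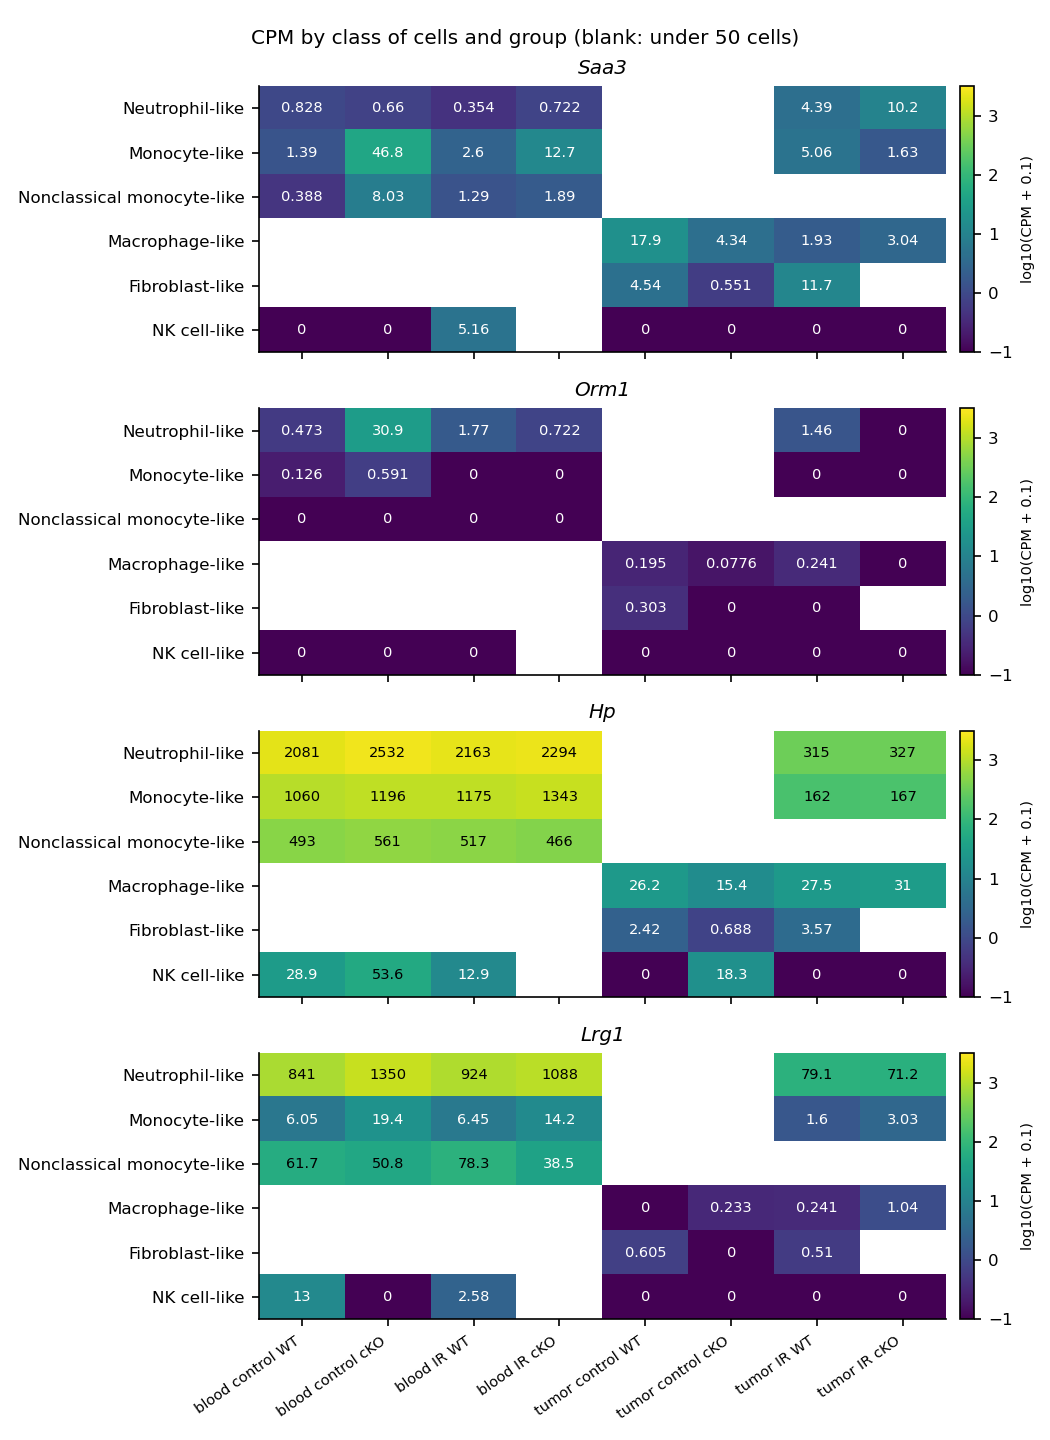
Level of each gene in classes of cells, as CPM printed in the cells and as colour on a log10 scale, with the 8 groups as columns and classes with under 50 cells in a group left blank. Saa3 was highest in monocyte-like cells of cKO blood control (46.8 CPM), Orm1 in neutrophil-like cells of the same group (30.9 CPM), Hp in all neutrophil-like and monocyte-like cells of blood, and Lrg1 in neutrophil-like cells.

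The Saa3-holding cells were set beside others of their cluster. Among the monocyte-like cells of cKO blood control, the 42 holders had a median of 11102 gene UMIs against 9958 in the 618 others, and 1368 against 1262 UMIs of the cKO hashtag. Lrg1 was at 39.4 CPM in the holders and 17.8 CPM in the others, a difference of 1.13 (0.36 to 1.85), on 19 UMIs. Hp was at 1476 against 1175 CPM (0.33, 0.22 to 0.44). Of 4 other acute-phase genes with at least 20 UMIs, Lcn2, an iron-sequestering protein, was higher in holders by 0.99 (0.57 to 1.39). Mt1, a metallothionein, was higher by 1.2 (0.83 to 1.56). Lbp and Il1rn were lower, at -0.51 and -0.50, with intervals that held 0. The 16 signalling genes had a median of -0.01, with 3 intervals above 0 and 1 below. Of 11 receptors and partners 3 were higher by 1 or more and 1 lower, with a median of 0.37. Among them Fpr2, which binds serum amyloid A, differed by 1.29 (0.66 to 1.89), and Hmox1, haem oxygenase, by 1.0 (0.60 to 1.39). Of 6242 genes counted, 29 were higher in holders by 1 or more, Saa3 itself included. Genes lower by as much were not counted over all genes. Holders were picked by their Saa3 UMIs, so these are descriptions of 42 cells.

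Orm1 was rarer than Saa3 and lay mostly in 1 group. Among WT cells it had 5 UMIs in 3 cells (blood control), 16 UMIs in 8 cells (blood IR), 4 UMIs in 3 cells (tumor control) and 3 UMIs in 2 cells (tumor IR). Among cKO cells it had 238 UMIs in 50 cells, 5 UMIs in 4 cells, 1 UMI in 1 cell and 0 UMIs, the last of which allows up to 0.121 CPM (3 UMIs). That is 238 of 272 UMIs in cKO blood control. The level there was 12.4 CPM, against 0.233 CPM in its WT counterpart, and the log2 ratio on which the gene was chosen was 5.46 (4.49 to 7.37). Within the group 7 cells held 50% of the UMIs, the highest cell had 42, and the 10 highest held 60.9%.

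Unlike Saa3, Orm1 was a transcript of neutrophil-like cells. In cKO blood control they held 234 UMIs in 46 of 2565 cells (30.9 CPM), and in WT 4 UMIs in 3177 cells (0.473 CPM). Monocyte-like cells held 4 UMIs or fewer in each blood group, and NK cell-like and nonclassical monocyte-like cells held 0. Nearly all of it was in cluster 11, a neutrophil-like cluster led by Ngp, Camp and Itgb2l. Ngp and Camp are genes of the secondary granules that neutrophils fill while still immature. Cxcr2, G0s2 and Retnlg, genes of mature neutrophils, were also among its raised markers, and the granule gene Ltf was not. That cluster held 250 of 264 Orm1 UMIs of the blood (94.7%).

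The comparison within cluster 11 rests on unequal numbers of cells, with under 50 in the WT groups. In blood control it had 230 UMIs in 42 of 501 cells labelled cKO, or 98.1 CPM (85.9 to 112), and 3 UMIs in 1 of 38 cells labelled WT, or 14.7 CPM (3.02 to 42.8). In blood IR it had 15 UMIs in 7 of 45 WT cells, or 48.8 CPM (27.3 to 80.4), and 2 UMIs in 2 of 55 cKO cells, or 6.99 CPM (0.847 to 25.3). The order of the labels thus turned between the libraries. Orm1 was therefore not a transcript of cKO cells alone, since 7 irradiated WT cells of the same cluster held it. At a finer clustering (resolution 1.2) 1 cluster of 90 cells held 230 of all 272 Orm1 UMIs. In it, 30 of 60 cKO and 1 of 10 WT cells of blood control, and 7 of 15 WT and 2 of 5 cKO cells of blood IR, held the gene, at 436, 38.9, 87.8 and 32.6 CPM. The levels among WT cells and irradiated cKO cells had overlapping intervals, 8.03 to 114, 49.1 to 145 and 3.95 to 118 CPM.

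Within cluster 11 of cKO blood control the 42 Orm1-holding cells were deeper than the 459 others, with median gene UMIs of 7995 and 4064. Holders were picked by their Orm1 UMIs within the group on which the gene was chosen, so these are descriptions of 42 cells. Of 15 neutrophil granule genes with at least 20 UMIs, 6 were higher in them by 1 or more on the log2 scale (Ltf, Camp, Ngp, Chil3, Cybb and Itgb2l) and 1 was lower (Olfm4), with a median of 0.94. Over all 2057 genes with at least 100 UMIs, 83 were higher by 1 or more, Orm1 included, and lower genes were not counted. Ltf, lactoferrin, was at 9602 against 945 CPM (3.34 on the log2 scale, 3.26 to 3.43), Camp, cathelicidin, differed by 3.23 (3.10 to 3.35), Ngp by 2.74 (2.70 to 2.78) and Chil3 by 3.92 (3.77 to 4.07). Olfm4, olfactomedin 4, had 0 UMIs in the holders and 215 in the others, and Hdc, Mmp9, Mmp8 and Padi4 differed by -0.74, -0.30, -0.16 and -0.28. Cebpe, the factor of terminal granulocyte differentiation, was at 184 against 25.8 CPM (2.79, 2.27 to 3.39). Genes of mature neutrophils were lower, Cxcl2 by -2.62, Il1b by -2.49, Csf3r by -1.83, Retnlg by -1.70 and Cxcr2 by -1.65, with every one of these 5 intervals below -1. Hp was alike in both sets, 2460 and 2540 CPM (-0.05, -0.15 to 0.06), and Lrg1 lower in the holders, 904 against 1223 CPM (-0.43, -0.61 to -0.26). Haemoglobin transcripts of 3 genes came with 6 to 9 of the 42 holders (Hbb-bs, 633 UMIs in 9 cells), and their part in the result was not tested.

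**Figure D4:**
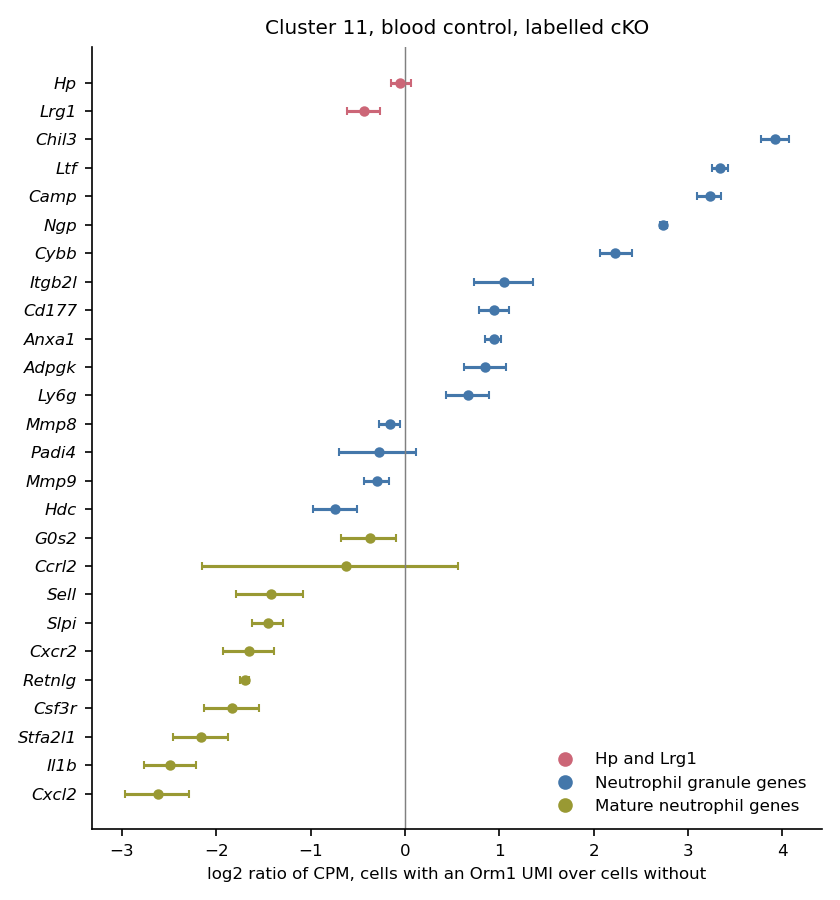
Genes of the neutrophil lists, with Hp and Lrg1, in cells of cluster 11 of cKO blood control that held Orm1 (42 cells) against those that did not (459 cells); the axis is the log2 ratio of CPM and bars are 95% binomial intervals. Olfm4, with 0 UMIs in the holders, is not drawn. Chil3, Ltf, Camp, Ngp and Cybb lie beyond 2 on the right, all 10 mature neutrophil genes lie left of 0 with the interval of Ccrl2 reaching past it, and Hp lies at -0.05.

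After irradiation Orm1 was at a lower level in cKO blood, where it had been chosen for its high start. IR against control came to -5.31 (-7.20 to -4.32) in cKO blood and, on 21 UMIs, to 1.45 (0.11 to 3.43) in WT blood. In neutrophil-like cells cKO went from 30.9 to 0.722 CPM and WT from 0.473 to 1.77 CPM. Since the first of these groups was the one selected, its lower level after IR is part of the same choice.

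Hp was the most abundant member. In blood it stood at 1290 CPM (WT) and 1552 CPM (cKO) in control and at 1424 and 1602 CPM after IR, and 86.4% to 93.6% of cells held it. In tumors it stood at 93.9 CPM (WT) and 49.4 CPM (cKO) in control and at 139 and 134 CPM after IR, and 14.2% to 25.3% of cells held it. Haptoglobin was thus a blood transcript of most cells and a tumor transcript of a minority. On the log2 scale tumor lay below blood by -3.78 (control WT), -4.97 (control cKO), -3.36 (IR WT) and -3.58 (IR cKO). Tissue and library cannot be told apart.

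By class, blood neutrophil-like cells held 59.4% and monocyte-like cells 33.0% of the 119627 Hp UMIs. Neutrophil-like cells stood at 2081 to 2532 CPM and monocyte-like cells at 1060 to 1343 CPM in the 4 groups. The count per cell went the other way, with medians of 5 to 7 UMIs in the first and 10 to 16 in the second, beside median depths of 2479 to 2637 and of 10016 to 12796 gene UMIs. At 1000 UMIs per cell 79.4% to 86.8% of neutrophil-like and 60.2% to 68.9% of monocyte-like cells held Hp. Nonclassical monocyte-like cells were lower, at 466 to 561 CPM. NK cell-like cells of blood control held it in 7.43% (WT) and 9.09% (cKO), at 28.9 and 53.6 CPM. Empty droplets of blood carried 1197 and 1338 CPM of Hp, near the level of the whole blood groups. The part of free RNA in single cells was not tested.

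The tumor Hp was concentrated in cluster 4, which no marker list named and which was led by Adora2b, Nrg1 and Cxcl10. It held 65.2% of 9203 tumor Hp UMIs, at 391 CPM (WT) and 427 CPM (cKO) in control and 463 and 552 CPM after IR, in 53.9% to 64.4% of its cells. Cluster 6, monocyte-like and led by interferon-induced genes such as Ifit2 and Rsad2, stood at 156 and 162 CPM after IR. Neutrophil-like cells of tumors, mostly cluster 12, led by Ccl3 and G0s2, stood at 315 and 327 CPM after IR. Macrophage-like cells stood at 15.4 to 31.0 CPM. Monocyte-like and neutrophil-like cells of tumor control numbered 14 to 37 per group and were not compared.

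Between genotypes Hp differed little in blood, by 0.27 (0.24 to 0.29) in control and 0.17 (0.15 to 0.19) after IR, with cKO higher in both. The direction in tumor control depended on the label rule. Under the rule used, cKO lay below WT by -0.93 (-1.03 to -0.82). With the 4 times margin asked of WT as well, cKO lay above by 0.67. The WT cells then dropped, 1522 of 2520, had 147 CPM of Hp and those left 31.1 CPM. The dropped cells were richer in cluster 4, at 34.2% against 7.41% of those left. Within cluster 4 itself the ratio was 0.13 (0.00 to 0.25). In tumor IR the ratio was -0.05 under the rule used and 0.42 with the margin. No direction between genotypes is therefore given for Hp in tumors.

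Lrg1 lay almost wholly in neutrophil-like cells of blood. In blood it stood at 344 CPM (WT) and 552 CPM (cKO) in control and at 364 and 406 CPM after IR, and 47.0% to 57.7% of cells held it. Of its 33793 blood UMIs 32715 (96.8%) lay in neutrophil-like cells. There the levels were 841 CPM (WT) and 1350 CPM (cKO) in control and 924 and 1088 CPM after IR, in 66.0%, 80.6%, 69.7% and 74.8% of cells. Thinned to 1000 UMIs the shares were 46.1%, 61.7%, 48.1% and 52.5%. NK cell-like cells of blood control had 9 UMIs in 6 of 202 WT cells and 0 in 55 cKO cells.

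Within blood control, whose contrast chose the other pair, Lrg1 was higher in cKO by 0.68 (0.64 to 0.73) over all cells. The difference was found in each neutrophil-like cluster with 50 cells in both groups. It came to 0.62 (0.55 to 0.69) in cluster 0, led by Slc40a1 and H2-Q10, to 0.80 (0.72 to 0.87) in cluster 1, led by Cstdc4 and Retnlg, and to 0.53 (0.34 to 0.72) in cluster 7, led by interferon-induced genes such as Ifit3. After IR the same clusters differed by 0.18, 0.22 and 0.31, with no interval reaching 0, and all blood cells by 0.16 (0.11 to 0.20). Monocyte-like cells held little Lrg1, 6.05 CPM (WT) and 19.4 CPM (cKO) in control and 6.45 and 14.2 CPM after IR, differences of 1.66 (1.19 to 2.19) and 1.12 (0.68 to 1.60). Empty droplets held 391 and 440 CPM of Lrg1 in the blood libraries, above the monocyte-like levels, and the part of free RNA in these was not tested. Nonclassical monocyte-like cells went the other way after IR, 38.5 CPM in cKO against 78.3 CPM in WT (-1.02, -1.47 to -0.60).

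Tumor cells had almost no Lrg1. The counts were 16 (WT) and 26 (cKO) UMIs in control and 78 and 112 UMIs after IR, or 0.794, 1.09, 3.85 and 4.51 CPM, against empty-droplet levels of 1.51 CPM (control) and 3.09 CPM (IR). Of 232 tumor UMIs 109 lay in the 626 neutrophil-like cells of tumors, at 79.1 CPM (WT) and 71.2 CPM (cKO) after IR. A fibroblast-like cell of cKO tumor IR added 30 UMIs. Tumor lay below blood by -8.67 (control WT), -8.92 (control cKO), -6.55 (IR WT) and -6.48 (IR cKO) on the log2 scale.

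**Figure D5:**
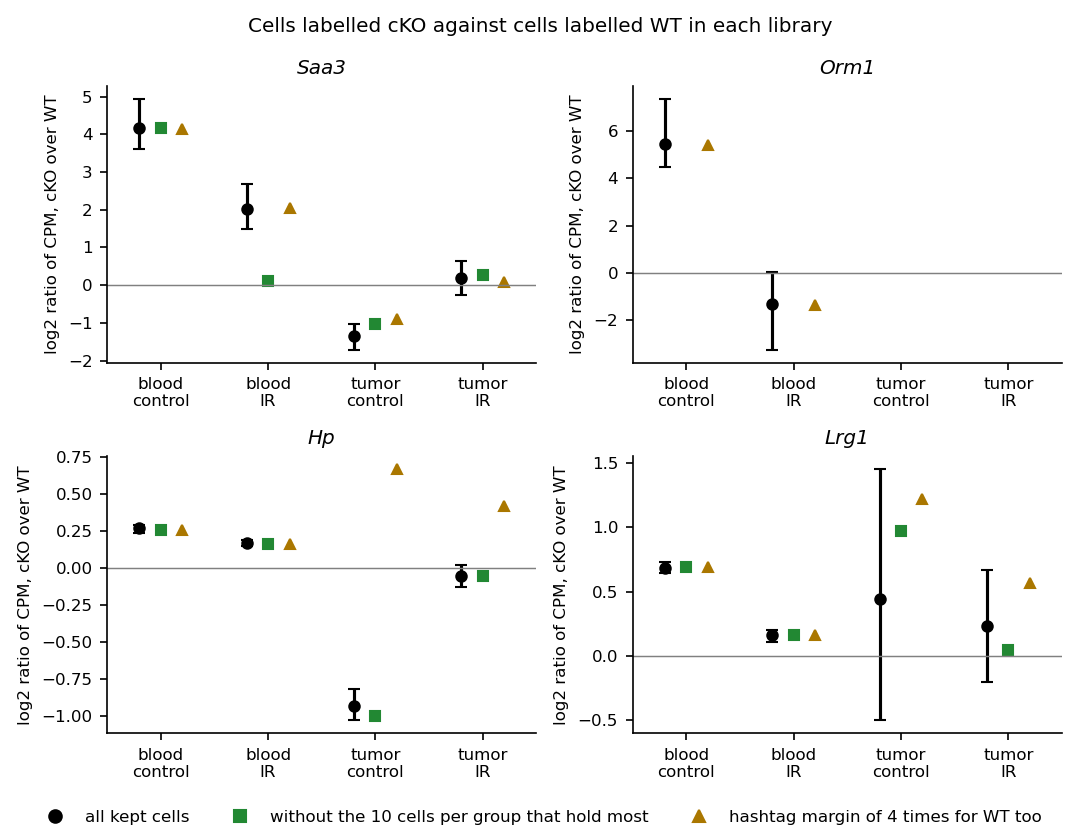
Log2 ratio of CPM in cells labelled cKO over cells labelled WT in each library, for the 4 genes on separate axes. Black points are all kept cells with 95% binomial intervals, green squares leave out the 10 cells per group that held most of the gene, and brown triangles ask a 4 times hashtag margin of WT cells too; for Saa3 in blood IR the square falls from 2.03 to 0.10, and for Hp in tumor control the triangle changes sign, from -0.93 to 0.67. Ratios on under 10 UMIs, or with 0 UMIs on a side, are not drawn.

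Set against all genes, members passed a limit on the ratio in some contrasts and not in others. A gene was counted where both groups together had at least 100 UMIs, and it passed the limit at a log2 ratio of 1 or more in either direction. In cKO against WT, 2 of 4 members passed in blood control, the contrast that chose them, where 2.25% of 9635 genes passed. In blood IR 1 of 3 passed (Saa3), against 0.694% of 9653 genes. There 1 cell held 71 of the 118 cKO UMIs of Saa3, and without the 10 highest cells of each group Saa3 did not pass. In tumor control 1 of 2 passed (Saa3, lower), against 4.98% of 10673 genes, and in tumor IR 0 of 3, against 1.05% of 10035 genes. With the 4 times hashtag margin asked of WT cells too, Saa3 did not pass in tumor control.

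In IR against control, 0 of 2 members passed in WT blood, where 1.32% of 9777 genes did. In cKO blood 2 of 4 passed, Saa3 at -1.57 (-1.89 to -1.27) and Orm1 at -5.31, against 1.39% of 9504 genes. Both start from the selected group. Hp was at 0.14 (WT) and 0.05 (cKO) in blood, and Lrg1 at 0.08 (0.04 to 0.13) in WT and -0.44 (-0.48 to -0.40) in cKO. In WT tumors 1 of 2 passed, Saa3 at -1.65 (-2.07 to -1.28), against 5.78% of 10145 genes, or -1.16 without the 10 highest cells of each group, on too few UMIs to be counted. In cKO tumors 2 of 3 passed, against 22.0% of 10686 genes, Hp at 1.44 (1.34 to 1.53) and Lrg1 at 2.01 (1.42 to 2.73). Hp in WT tumors was at 0.56 (0.48 to 0.65), or 1.68 with the 4 times margin, and Lrg1 there at 2.21 (1.49 to 3.15) on 94 UMIs. The make-up of the tumor groups also differed between control and IR, and its part in these values was not tested. Neutrophil-like cells went from 17 to 332 in WT and from 30 to 247 in cKO, and 7 (WT) and 6 (cKO) of 10 mature neutrophil genes were higher after IR and 0 lower. Monocyte-like cells went from 37 to 583 and from 14 to 638. Cluster 10, at 2.96 CPM of Hp in cKO control, went from 498 to 100 cKO cells. Within cluster 4 of cKO tumors IR against control came to 0.37 (0.25 to 0.49) for Hp and -0.24 (-1.51 to 1.05) for Lrg1, and within macrophage-like cells to 1.01 (0.76 to 1.27) for Hp.

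The other acute-phase genes were mostly absent. Of 27 listed (chosen, like all lists here, with earlier results of these data known), 10 had 0 UMIs in all kept cells, among them Saa1, Apcs and the fibrinogen genes Fga, Fgb and Fgg, and 6 were counted in blood control. Of these 6, Lcn2 and Lbp were higher in cKO and Mt1 lower, with a median log2 ratio of -0.04 beside 0.01 over all genes. Lcn2, the most abundant, was at 571 CPM (WT) and 1693 CPM (cKO) in blood control, a ratio of 1.57 (1.54 to 1.60), and at 724 and 653 CPM in blood IR. Lbp, which presents lipopolysaccharide to Cd14, differed by 1.02 (0.62 to 1.44) on 220 UMIs. Mt1 differed by -1.17 (-1.30 to -1.05).

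Of 16 counted genes of acute-phase signalling 0 passed the limit in blood control, where 2.25% of 9635 genes did. At that share a count of 0 says little about the list. Their median was -0.10, and Il1b, the most abundant, was at 4329 CPM (WT) and 2791 CPM (cKO). Stat3 was at 186 and 177 CPM and Cebpb at 2645 and 2115 CPM. Of 12 receptors and partners 1 passed, Trem1, an amplifier of myeloid inflammation, at -1.19 (-1.25 to -1.13), and Cd163 was at 1.72 and 0.992 CPM. Neutrophil granule genes, some of which were high in the Orm1-holding cells, had 9 of 16 counted genes higher in cKO and 0 lower, with a median of 1.21. Ngp led with 3.02 (2.96 to 3.07), followed by Camp with 2.84 (2.68 to 3.02), Ltf with 2.58 (2.48 to 2.68) and Itgb2l with 2.57 (2.25 to 2.93). Of 3 counted primary granule genes 3 were higher, Elane most at 2.96 (2.19 to 4.07) on 102 UMIs. Of 10 mature neutrophil genes Retnlg was higher, at 1.08, and Cxcl2 and Ccrl2 lower, at -1.21 and -1.13.

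The granule genes of blood also differed after IR. In cKO blood 7 of 16 were lower than in control and 0 higher, with a median of -0.60. There 1.39% of 9504 genes passed the limit in either direction, and the contrast starts from the group that chose Orm1. In WT blood 3 were higher (Camp, Fcnb and Ngp) and 0 lower, where 1.32% of 9777 genes passed. Camp went from 115 to 23.4 CPM in cKO and from 15.9 to 57.6 CPM in WT. In cKO against WT after IR, Camp, Ltf and Ngp were lower in cKO, at -1.30, -1.31 and -1.28, beside -1.30 for Orm1 (-3.25 to 0.06, on 21 UMIs), which turned to 0.70 with equal weight per cell. The number of cluster 11 cells and the level within them can be given apart. The cluster had 38 WT cells (0.814% of the group) and 501 cKO cells (13.1%) in blood control, and 45 WT (1.08%) and 55 cKO cells (1.59%) in blood IR. It held 88.2% to 99.2% of the Camp UMIs of each blood group. Within it Camp stood at 1621 CPM (WT) and 931 CPM (cKO) in control and at 3679 and 1520 CPM after IR, so cKO lay lower there in control, unlike over all blood cells. Ltf and Ngp had the same order in control, with 4517 and 13547 CPM in WT and 2170 and 8988 CPM in cKO. Orm1 within the cluster had the opposite order in control, 14.7 CPM (WT) and 98.1 CPM (cKO), a ratio of 2.68 (1.18 to 5.03) beside 5.46 over all cells, in the contrast that chose it.

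Profiles over 31 pairs of class and group with at least 50 cells placed each member beside other genes. Over log2(CPM + 10), Lrg1 was most like Wfdc21, Slc40a1 and Gm16556 (Pearson's r of 0.99, 0.98 and 0.98), Hp like Taldo1, Nfe2 and Ifitm6 (0.96 each) and Orm1 like Itgb2l, 1700047M11Rik and Crispld2 (0.89, 0.87 and 0.75). Saa3 had no close neighbour, with Arhgap6 at 0.62 and 2500002B13Rik and Spink2 at 0.55. Between members r was 0.77 for Hp and Lrg1, 0.53 for Orm1 and Lrg1, 0.34 for Orm1 and Hp, 0.16 for Saa3 and Hp, -0.12 for Saa3 and Lrg1 and -0.10 for Saa3 and Orm1. Orm1 was high only in neutrophil-like cells of cKO blood control, the group on which it was chosen. Its r values, that with Lrg1 included, thus largely restate that group, and by ranks its neighbours were other genes. The profiles share libraries, depths and labels, and these values are descriptions.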

How the data were processed

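The deposited files are 4 matrices of UMI counts per gene and barcode, with the 2 hashtags as further rows. The submitters' processing notes name Cell Ranger 6.0.1, Seurat 4.0.6 and mm10. These deposited values are whole-number counts and include empty droplets. The members and the gene lists were chosen with earlier results of these data known.

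Cell calling used a threshold on total UMIs, set by order of magnitude, plus a test against empty droplets, and barcodes were kept with at least 500 gene UMIs, 200 genes, at most 25% mitochondrial UMIs and 20 hashtag UMIs. The 6% with the highest Scrublet score per library were removed (scanpy 1.11.5). Cells were clustered in Seurat 5.3.0 at resolution 0.8, without the members, Ythdf2, Lyz1 and Lyz2 among the variable genes, which gave 23 clusters. Of these 18 were named from marker lists and 5 stayed unnamed. UMIs were summed per group and class (Python 3.11.15, pandas 2.3.3) and scaled to CPM. Intervals are exact Poisson, Clopper-Pearson or conditional binomial (scipy 1.17.1) at the 95% level. Ratios add 1 UMI to each sum, and ratios were checked on simulated data. Classes of under 50 cells in a group were not compared, with an exception for Orm1. The neutrophil-like cluster that held most of its blood UMIs was compared with 38 (control) and 45 (IR) WT cells. The finer cluster that held most Orm1 UMIs was described with as few as 5 cells in a group. This exception was made for a gene chosen on its counts. Shares of cells with a UMI were repeated at 1000 UMIs per cell.

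Genes named from a list were mainly up to 4 with the largest ratio in blood control among those past the limit, and the most abundant of some lists. Stat3, Cebpb and Cd163 were named outside this rule. The other genes named in descriptions of holding cells were chosen after their values were seen. Alternatives covered the hashtag rule, cell calling, doublets, clustering and scaling (TMM factors, edgeR 4.0.16).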

Additional observations from a re-analysis of the deposited data

Results flagged for a closer look

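These values are differences between effects in separate pools of mice, and none of the differences was tested. The cKO to WT ratio of Saa3 differed by 5.54 on the log2 scale between blood control (4.18, the contrast on which the gene was chosen) and tumor control (-1.36). The IR to control ratio of Orm1 differed by 6.76 between WT blood (1.45, on 21 UMIs) and cKO blood (-5.31, starting from the selected group). The cKO to WT ratio of Hp differed by 1.2 between blood control (0.27) and tumor control (-0.93), and the second turned to 0.67 with the 4 times hashtag margin for WT cells. The IR to control ratio of Lrg1 differed by 0.52 between WT blood (0.08) and cKO blood (-0.44). That of cKO cells differed by -2.45 between blood (-0.44) and tumor (2.01).

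Members were also found in barcodes that entered no comparison. The 1313 barcodes whose hashtags lay between the labels held 67 UMIs of Saa3 in 14 barcodes, 7204 of Hp and 2201 of Lrg1. The 11957 called barcodes with under 20 hashtag UMIs, nearly all from tumors, held 245 UMIs of Saa3 in 97 barcodes, 5601 of Hp and 154 of Lrg1. Orm1 held 2 and 3 UMIs in these sets.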

How the results depend on the processing

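No counted ratio past the limit changed sign under any alternative run. Ratios within the limit or on under 100 UMIs did. That of Hp in cKO against WT went from -0.93 to 0.67 in tumor control and from -0.05 to 0.42 in tumor IR with the hashtag margin on both sides. With equal weight per cell, cKO against WT went from -1.30 to 0.70 for Orm1 in blood IR and from 0.23 to -0.52 for Lrg1 in tumor IR. In cKO, IR against control crossed 0 for Hp in blood (0.05, lowest -0.03) and for Saa3 in tumors (-0.10, highest 0.14). Of 334 recomputed member ratios 284 moved by less than their counting interval and 50 by more, as did 60 of 360 class values. No paired analysis was possible because each group was 1 pooled sample and no result comes from a test. Members past the limit changed in 14 of 96 recounts. Without the 10 cells that held most, they numbered 1 in cKO against WT in blood control, 0 in blood IR, 1 in IR against control in cKO blood, 0 in WT tumors and 1 in cKO tumors. With the hashtag margin on both sides they numbered 0 in cKO against WT in tumor control and 2 in IR against control in WT tumors. HTODemux labels gave 1 in tumor IR (cKO against WT) and 1 in cKO tumors, as did the order-of-magnitude threshold alone. Every barcode of at least 500 UMIs, and no Scrublet removal, gave 2 each in WT tumors, and equal weight per cell gave 0 in cKO tumors. The cause was not tested.

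Genes past the limit were more numerous with a minimum of 20 UMIs, and without any minimum. In cKO against WT they were 521 and 2549 (blood control), 252 and 2144 (blood IR), 996 and 3108 (tumor control) and 394 and 2401 (tumor IR). In IR against control they were 407 and 2577 (WT blood), 400 and 2469 (cKO blood), 1152 and 3351 (WT tumor) and, without a minimum, 6069 (cKO tumor). Of the 3 genes most like each member, Spearman's rho kept 0 for Saa3, 0 for Orm1, 1 for Hp and 0 for Lrg1. For Saa3 a pseudocount of 1 kept 0 and a minimum of 100 cells kept 1.

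Saa3 and Orm1 rest on 253 and 71 cells, 1 pool of mice per group gives no spread between animals, and intervals cover counting error only.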
